A study of Bos taurus with 170 samples.

Results

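The genes described here write, maintain, read or remove DNA methylation in the early bovine embryo. They were chosen by name, as the DNA methyltransferases DNMT1, DNMT3A and DNMT3B, the DNMT1 partner UHRF1, the dioxygenases TET1, TET2 and TET3, the chromatin protein MBD3 and the glycosylase TDG. Of these 9 genes, 6 were listed among the 10772 genes of the UMI table, and TET1, TET2 and TET3 had no entry. Every listed gene had at least 1 UMI in the cells analysed, so a missing entry gives neither a level nor a limit for a TET gene. In the RefSeq annotation of the ARS-UCD2.0 assembly, the TET genes belong to 7724 protein-coding genes with predicted transcripts only, of which 28 (0.363%) were listed. Of the 13942 protein-coding genes with a curated transcript, among them the other 6 members, 10174 (73.0%) were listed. Ratios of methyltransferases to TET genes therefore could not be computed.

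DNA methylation is copied after replication by DNMT1, which UHRF1 brings to hemimethylated sites. DNMT3A and DNMT3B place new methyl groups. TET proteins oxidise the methyl group and TDG cuts out some of the oxidised bases, while MBD3 is a subunit of the nucleosome remodelling and deacetylase (NuRD) complex. In cattle, the major activation of the embryonic genome falls at about the stages sampled here, and methylation of the genome is remodelled before and around that time.

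Single blastomeres of bovine (Bos taurus) embryos were profiled by SCRB-seq, a plate-based method that counts the 3′ end of each captured mRNA molecule once through a unique molecular identifier (UMI). The embryos came from oocytes of slaughterhouse ovaries that were matured and fertilised in vitro, and were chosen by time-lapse kinetics of their cleavages. The groups were 6 Day 2 embryos labelled as 8-cell stage and 8 Day 3 embryos labelled as 16-cell stage, all untreated. The labelled stage is nominal, since cell numbers varied: Day2-E2 gave 9 analysed cells and Day3-E5 gave 17. No genotype or strain was used to separate the groups, and the animals behind the single embryos are not named in the labels.

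Of 170 cells, 161 had 2000 or more UMI on genes and were kept, 43 from Day 2 and 118 from Day 3. The median was 75114 UMI per cell on Day 2 (range 2634 to 357287) and 24016.5 on Day 3 (range 2078 to 108376). Counts were summed per embryo and are given as CPM, the share of an embryo's gene UMI that fell on a gene, in counts per 1000000. Totals were 438899 to 920192 UMI in Day 2 embryos and 294912 to 600185 in Day 3 embryos. The embryo was the replicate. Since molecules are counted by their 3′ end, levels of different genes were compared without a length correction, and isoforms such as the oocyte form of DNMT1 could not be told apart. In all, 77 cell barcodes were each used by 2 cells. The first barcode set covered Day3-E1, Day3-E2 and the whole of Day 2, and the second covered Day3-E4 to Day3-E8, while the set of Day3-E3 was not settled by the labels. Gene UMI per ERCC spike-in UMI were 64.8 to 71.7 in the Day 2 embryos and Day3-E1 to Day3-E3, against 32.6 to 40.2 in Day3-E4 to Day3-E8. For those 5 embryos, barcode set and day cannot be told apart. Oocyte genes marked the cells of both days, with a summed level of 4478 to 4606 CPM for 7 listed oocyte markers on Day 2 and 927 to 4130 CPM on Day 3. Of 8 cumulus markers 6 were listed, with a summed level of 229 to 332 CPM on Day 2 and 152 to 325 CPM on Day 3. Most of it was HAS2 (92.7 to 310 CPM). PTX3, CYP11A1 and GREM1 were at most 3.04, 4.27 and 10.24 CPM in any embryo. INHBA averaged 13.39 CPM on Day 2 and 24.97 CPM on Day 3, and TNFAIP6 0.380 and 12.4 CPM. The part of cumulus RNA in the results was not tested.

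UHRF1 and DNMT1 made up nearly all transcripts of the 6 listed members. UHRF1 held 58.0% ± 1.04 (SD) of their UMI in the 6 Day 2 embryos and 62.0% ± 2.304 in the 8 Day 3 embryos, and DNMT1 held 36.3% ± 1.31 and 30.6% ± 4.01. By mean CPM over the 14 embryos, UHRF1 ranked 47th and DNMT1 133rd of all listed genes. DNMT3A, DNMT3B and MBD3 were more than 10 times lower than DNMT1 in their Day 2 means and came in that order on Day 2, where the ranges of neighbours overlapped. On Day 3 MBD3 had the highest mean of them, and the ranges of all 3 overlapped. TDG was lowest.

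**Figure D1:**
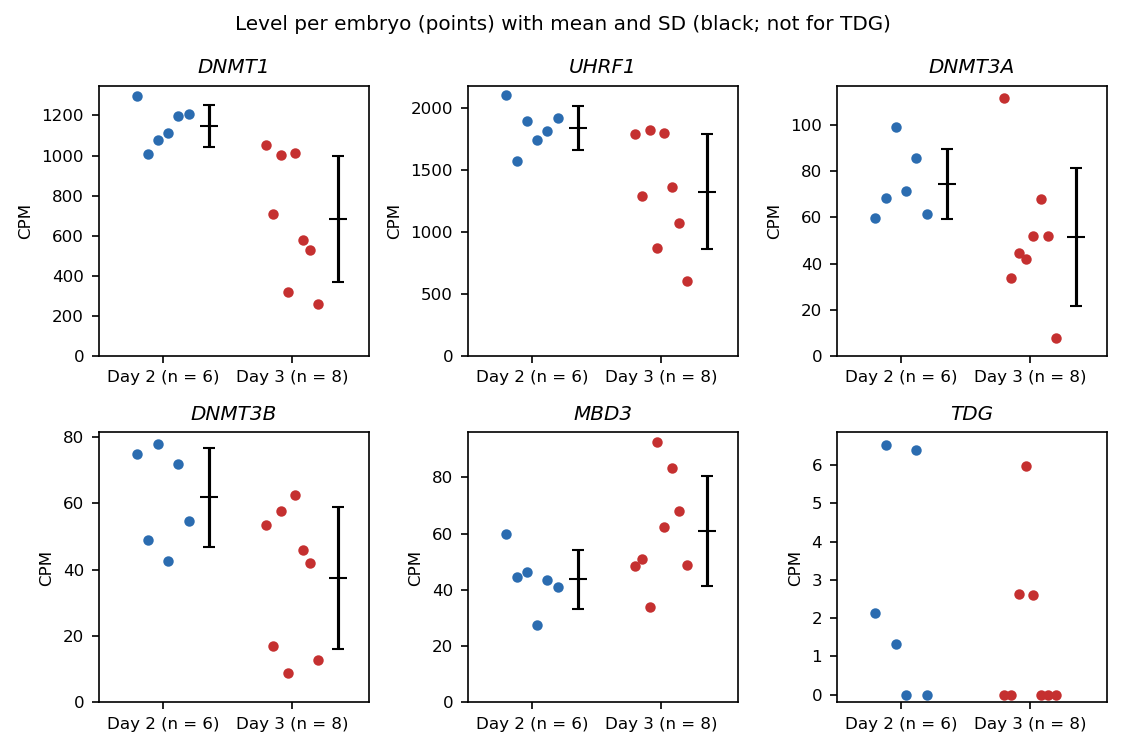
Level in CPM (y axis, from 0 except for TDG) of the 6 listed members in 6 Day 2 embryos (blue) and 8 Day 3 embryos (red), with the mean and SD in black except for TDG. The Day 2 embryos lie close together for DNMT1 and UHRF1 (1006 to 1295 and 1574 to 2099 CPM), and the Day 3 embryos spread from those levels down to 257 and 602 CPM.

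The maintenance enzyme DNMT1 lay between 1006 and 1295 CPM on Day 2, with a median of 1153. On Day 3 it lay between 257 and 1051 CPM, with a median of 643. Of the 8 Day 3 embryos, 6 were below every Day 2 embryo and the other 2 within their range. DNMT1 averaged 1148 ± 104 CPM (SD, n = 6) in Day 2 embryos and 682 ± 315 CPM (SD, n = 8) in Day 3 embryos, a difference in mean CPM with an exact permutation p of 0.00433 (two-sided; adjusted over 6 members 0.0260). Scaled by TMM, which trims the genes of most extreme change before it sets library sizes, DNMT1 had a log2 fold change of -0.56 (SE 0.22) and did not pass edgeR's quasi-likelihood test (Benjamini-Hochberg adjusted p = 0.0608). The outcome depended on the scaling. Library totals without TMM moved the median log2 fold change of all genes from -0.04 to -0.27, and DNMT1 then passed (log2 fold change -0.75, edgeR adjusted p = 0.0406).

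UHRF1, the protein that guides DNMT1 to replicated DNA, spanned 1574 to 2099 CPM on Day 2 (median 1849) and 602 to 1820 CPM on Day 3 (median 1324). In 5 Day 3 embryos it was lower than in every Day 2 embryo, and in 3 it lay within the Day 2 range. Its log2 fold change was -0.26 (SE 0.17) and did not pass edgeR's quasi-likelihood test (adjusted p = 0.248). The mean CPM differed with an exact permutation p of 0.0250 that did not hold after adjustment over the 6 members (0.0733).

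Both maintenance genes spread more widely between Day 3 than between Day 2 embryos. Other genes, such as the DNA ligase LIG1 and the oocyte growth factor GDF9, also had a larger SD on Day 3. How many of all genes did so was not counted, so the spread cannot be called particular to these members. The coefficient of variation of DNMT1 was 9.04% over Day 2 and 46.2% over Day 3 embryos, and that of UHRF1 was 9.63% and 34.7%. From the lowest to the highest Day 3 embryo, DNMT1 spanned 4.08-fold and UHRF1 3.02-fold. Day3-E8 and Day3-E4 were lowest in both genes, with 257 and 320 CPM of DNMT1 and 602 and 867 CPM of UHRF1. Day3-E1, Day3-E3 and Day3-E5 were highest, with 1051, 1000 and 1014 CPM of DNMT1.

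In the 2 lowest embryos, nearly all cells were low in DNMT1. Among cells with 10000 or more UMI, the lowest Day 2 cell had 449 CPM of DNMT1, and 13 of 14 cells of Day3-E8 and 10 of 11 cells of Day3-E4 lay below it. None of the 13 cells of Day3-E1 or of Day3-E3 did. For UHRF1, all 14 cells of Day3-E8 and 7 of 11 cells of Day3-E4 were below the lowest Day 2 cell at 1088 CPM. A few cells departed from their embryo. In Day3-E5, blastomeres 12 and 15 had 1 UMI of DNMT1 each (66.9 and 86.6 CPM) beside 39 and 31 UMI of UHRF1, while the median cell of that embryo had 1091 CPM of DNMT1. Below 10000 UMI, blastomeres 7, 11 and 13 of Day3-E5 had 1, 1 and 0 UMI of DNMT1 beside 18, 9 and 16 UMI of UHRF1, and blastomere 3 had 5 and 27. All these cells were picked out after their values were seen. Within embryos, the variance of DNMT1 between cells was a median of 3.95 times the counting variance on Day 2 and 2.03 times on Day 3. Such a multiple rises with the UMI counted per cell, so it does not compare the days. Mean DNMT1 UMI per cell were 88.2 to 117 in the Day 2 embryos and 6.67 to 45.1 in the Day 3 embryos. For DNMT3A and DNMT3B, the variance was close to that of counting alone (medians 0.979 to 1.27 times), so cells could not be ranked by these genes at this depth.

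**Figure D2:**
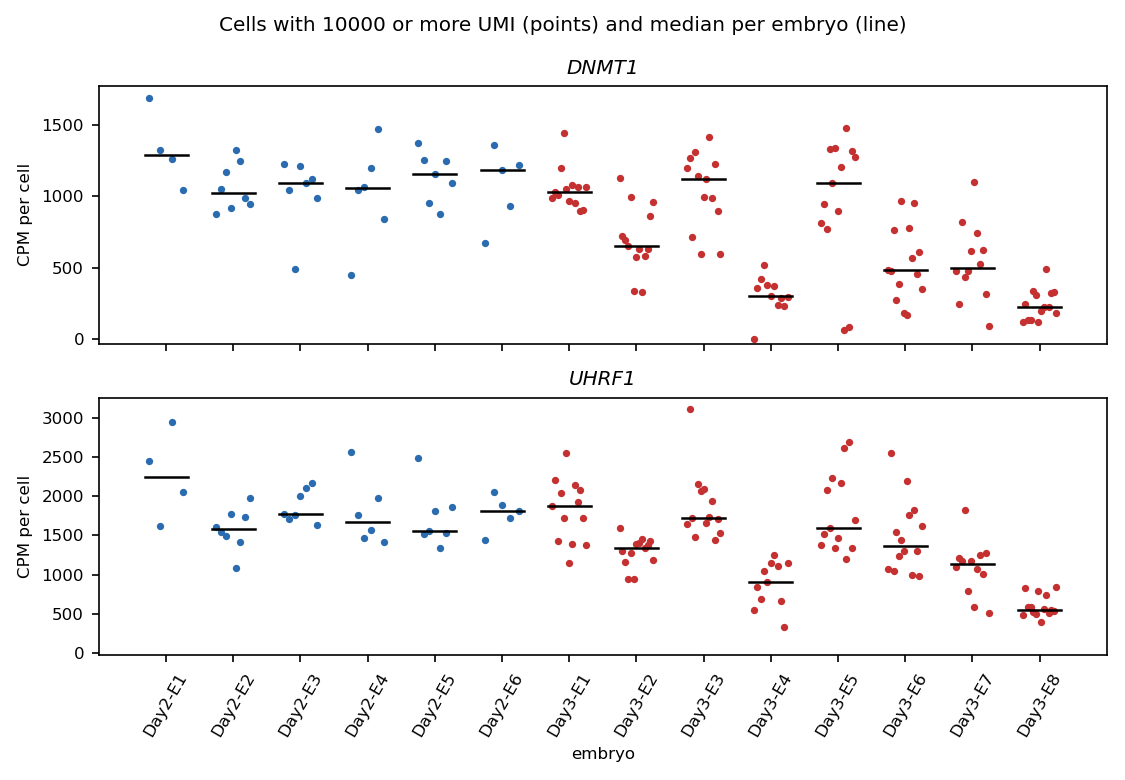
DNMT1 (top) and UHRF1 (bottom) in CPM per cell (y axis) for cells with 10000 or more UMI in each embryo (x axis), with the embryo median as a black line; Day 2 is blue and Day 3 red. Median DNMT1 was 225 CPM in Day3-E8 and 300.1 CPM in Day3-E4, against 1021 to 1293 CPM in the Day 2 embryos.

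The de novo methyltransferase DNMT3A was at 59.8 to 98.9 CPM on Day 2 (median 70.0) and 7.72 to 112 CPM on Day 3 (median 48.1). Day3-E1 was above and 6 Day 3 embryos were below all Day 2 embryos. Its log2 fold change was -0.31 (SE 0.30), short of the threshold of edgeR's quasi-likelihood test (adjusted p = 0.449). DNMT3B, the second de novo enzyme, was at 42.6 to 77.8 CPM on Day 2 (median 63.2) and 8.97 to 62.4 CPM on Day 3 (median 44.0). It was below all Day 2 embryos in 4 Day 3 embryos and within their range in the other 4. Its log2 fold change of -0.49 (SE 0.31) did not pass either (edgeR adjusted p = 0.224). These values rest on 307 and 178 UMI of DNMT3A and on 247 and 125 UMI of DNMT3B over all Day 2 and all Day 3 embryos.

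MBD3 was the 1 member called. It lay between 27.4 and 59.8 CPM on Day 2 (median 44.0) and between 34.0 and 92.7 CPM on Day 3 (median 56.6). In 4 Day 3 embryos it was above every Day 2 embryo, and the other 4 overlapped with Day 2. The log2 fold change was 0.77 (SE 0.27) and passed edgeR's quasi-likelihood test (adjusted p = 0.0384), on 174 and 190 UMI. The call was lost without TMM (0.48, adjusted p = 0.147) and without any 1 of Day2-E2 to Day2-E6, Day3-E4, Day3-E6, Day3-E7 and Day3-E8 (0.62 to 0.88 over all embryos left out in turn, adjusted p 0.0162 to 0.110), and the sign turned with ERCC scaling (-0.15), which follows the barcode sets. The difference in mean CPM had an exact permutation p of 0.0766. Of 5 members tested, 1 was higher and 0 were lower on Day 3, beside 21.18% of 5274 genes called higher and 11.28% called lower. DNMT1 passed without Day3-E1, Day3-E3 or Day3-E5 (edgeR adjusted p 0.0279 to 0.0378). Without Day3-E4 and Day3-E8, chosen after their values were seen, 0 members were called.

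The sample titles end in p1, p2 or p3, which the labels do not explain and which was treated as a batch. Within p2 and p3, which hold both days, the means of the maintenance genes were lower on Day 3. The Day 2 embryos of p2 and p3 were all in the first barcode set and their Day 3 embryos all in the second. Within these groups, day and barcode set therefore cannot be told apart. In p2, DNMT1 averaged 1200.3 CPM in 2 Day 2 embryos and 394 CPM in 2 Day 3 embryos, and in p3 it averaged 1122 CPM in 4 Day 2 and 795 CPM in 2 Day 3 embryos. MBD3 averaged 42.3 and 58.4 CPM in p2 and 44.5 and 72.8 CPM in p3. The p1 group held Day 3 embryos only. With the first barcode set alone, which leaves Day3-E1 and Day3-E2, the log2 fold changes were -0.22 for DNMT1 and 0.35 for MBD3, and neither passed.

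TDG, the glycosylase that acts after TET oxidation, failed the filter on low counts. It had 13 UMI in the Day 2 embryos and 4 in the Day 3 embryos, in 14 cells in all and never more than 2 in a cell. The pooled level was 3.23 CPM on Day 2 and 1.27 CPM on Day 3, a ratio of 2.54 with an exact 95% interval of 0.786 to 10.71 that covers counting error only. A difference was not detectable at this depth (exact permutation p = 0.338 over embryos).

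The balance of the 2 maintenance transcripts shifted between the days. DNMT1 per UHRF1 was 0.569 to 0.661 in the Day 2 embryos and 0.370 to 0.588 in the Day 3 embryos, and 7 of 8 Day 3 embryos lay below all Day 2 embryos. The log2 ratio averaged -0.68 ± 0.07 (SD, n = 6) in Day 2 embryos and -1.03 ± 0.24 (SD, n = 8) in Day 3 embryos. The difference of -0.35 had an exact permutation p of 0.00433, and 0.0130 after adjustment over 3 ratios. Both genes come from the same library, so the scaling of the library does not enter this ratio. With cells weighted equally the difference was -0.35 with an adjusted permutation p of 0.123, and with the first barcode set alone it was -0.13 (adjusted exact permutation p = 0.107). That set holds 2 Day 3 embryos, too few for this permutation test to fall under 0.05 after adjustment, so it decides nothing here.

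Maintenance transcripts exceeded de novo transcripts in every embryo, and a difference in their ratio between the days was not detected. The ratio of DNMT1 plus UHRF1 to DNMT3A plus DNMT3B had a geometric mean of 22.05 on Day 2 (range 16.72 to 26.6) and 24.0 on Day 3 (range 16.797 to 39.4). The log2 means were 4.46 ± 0.26 and 4.58 ± 0.50 (SD, n = 6 and 8), a difference of 0.12 with an exact permutation p of 0.588. In Day3-E8 and Day3-E2, which had the highest ratios, only 8 and 15 de novo UMI were counted. DNMT3A per DNMT3B was 1.21 on Day 2 and 1.37 on Day 3 as geometric means (exact permutation p = 0.680), with Day 3 embryos from 0.636 to 4.14.

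**Figure D3:**
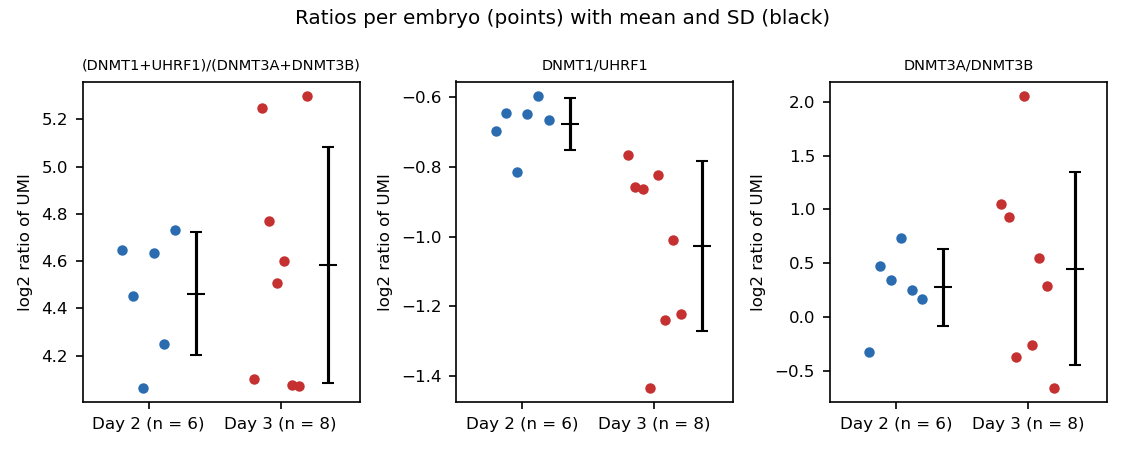
Log2 ratio of UMI (y axis) in each embryo for maintenance over de novo genes, DNMT1 over UHRF1 and DNMT3A over DNMT3B, with the mean and SD in black; Day 2 is blue and Day 3 red. The groups overlap least for DNMT1 over UHRF1, in which 1 of 8 Day 3 embryos reaches the Day 2 range.

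Fewer Day 3 than Day 2 cells had a UMI of a de novo enzyme, but the difference did not pass the test once depth was made equal. DNMT3A was found in 37 of 43 Day 2 and 69 of 118 Day 3 cells and DNMT3B in 34 and 53. Averaged over embryos, the share of cells with DNMT3B was 77.6% ± 19.6 on Day 2 and 44.6% ± 19.7 on Day 3 (SD, n = 6 and 8; adjusted exact permutation p = 0.0433). Day 2 cells held more UMI. Thinned to 10000 UMI, which left out 6 Day 2 and 15 Day 3 cells, the shares were 41.6% ± 12.7 and 27.0% ± 14.896, with an adjusted exact permutation p of 0.154. DNMT1 had a UMI in 42 of 43 and 116 of 118 cells, and UHRF1 in 43 of 43 and 117 of 118. No cell type that should lack these genes was sampled, so background from free RNA could not be read.

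The study's design places the embryos around genome activation, and 20 genes that the study examined for activation were summed as a measure of it. The study took them from an earlier list of genes first transcribed at the 8-cell stage in pooled embryos and kept those detected in the present cells, so a rise with stage is built into the list. Their sum was 88.3 to 165 CPM on Day 2 and 130.0 to 2132 CPM on Day 3, lowest in Day3-E1 and highest in Day3-E8 and Day3-E4. The 20 genes entered the sum unequally. DDX3Y and FOLR1 had the highest means, with 86.2 and 13.08 CPM on Day 2 and 217 and 420 CPM on Day 3. The next gene on Day 3, ADAMTS1, averaged 66.0 CPM. Over the 8 Day 3 embryos, the log2 level of DNMT1 went down as the sum went up (Pearson r = -0.90, exact permutation p = 0.00233, adjusted over 5 members 0.0117; Spearman rho = -0.93, exact permutation p = 0.00223, adjusted 0.0112). UHRF1 had r = -0.87 (exact permutation p = 0.00511, adjusted 0.0128) and rho = -0.88 (permutation p = 0.00724, adjusted 0.0121). DNMT3B had r = -0.81 (exact permutation p = 0.0144, adjusted 0.0239) and rho = -0.90 (permutation p = 0.00456, adjusted 0.0114). The sum and the member levels are shares of the same UMI totals. How many of all genes go down with the sum in this way was not counted. The relation therefore cannot be called particular to these members.

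DNMT3A was less clear, with r = -0.70 (exact permutation p = 0.0538, adjusted 0.0673) and rho = -0.86 (permutation p = 0.0107, adjusted 0.0134). MBD3 had r = 0.41 (exact permutation p = 0.311, adjusted 0.311) and rho = 0.36 (permutation p = 0.389, adjusted 0.389). On the log2 scale used for the correlations, Day3-E1 and Day3-E5 were farthest from the median of the sum. Over the 6 embryos without them, r was -0.96 for DNMT1 and -0.94 for UHRF1 (adjusted exact permutation p = 0.0139 for both), -0.88 for DNMT3B (adjusted permutation p = 0.0139) and -0.56 for DNMT3A (adjusted permutation p = 0.299). By rank, UHRF1 and DNMT3B had rho = -0.94 (adjusted exact permutation p = 0.0417 for both), while DNMT1 (rho = -0.83, adjusted permutation p = 0.0972) and DNMT3A (rho = -0.77, adjusted permutation p = 0.128) no longer passed. On the linear scale Day3-E4 and Day3-E8, the embryos lowest in DNMT1, were farthest. Without these 2 embryos no relation passed: r was -0.86 for DNMT1 and -0.83 for UHRF1 (adjusted exact permutation p = 0.108 for both), and -0.60 for DNMT3B (adjusted permutation p = 0.245). Every fit in which a relation passed thus included Day3-E4 and Day3-E8. Without them, r stayed close to its value over 8 embryos for DNMT1 and UHRF1 (-0.90 and -0.87), and moved from -0.81 for DNMT3B. Whether the loss of the call comes from these 2 embryos or from the smaller number of embryos was not tested. Within p1 alone, the sum rose from Day3-E1 over Day3-E3 and Day3-E2 to Day3-E4, and DNMT1 was 1051, 1000, 709 and 320 CPM in that order. Neither a p group nor a barcode set held the 6 embryos needed for a correlation of its own. In the second barcode set DNMT1 was 257 to 1014 CPM and in Day3-E1 to Day3-E3 it was 709 to 1051 CPM, and the part of the barcode set in the relation was not tested.

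**Figure D4:**
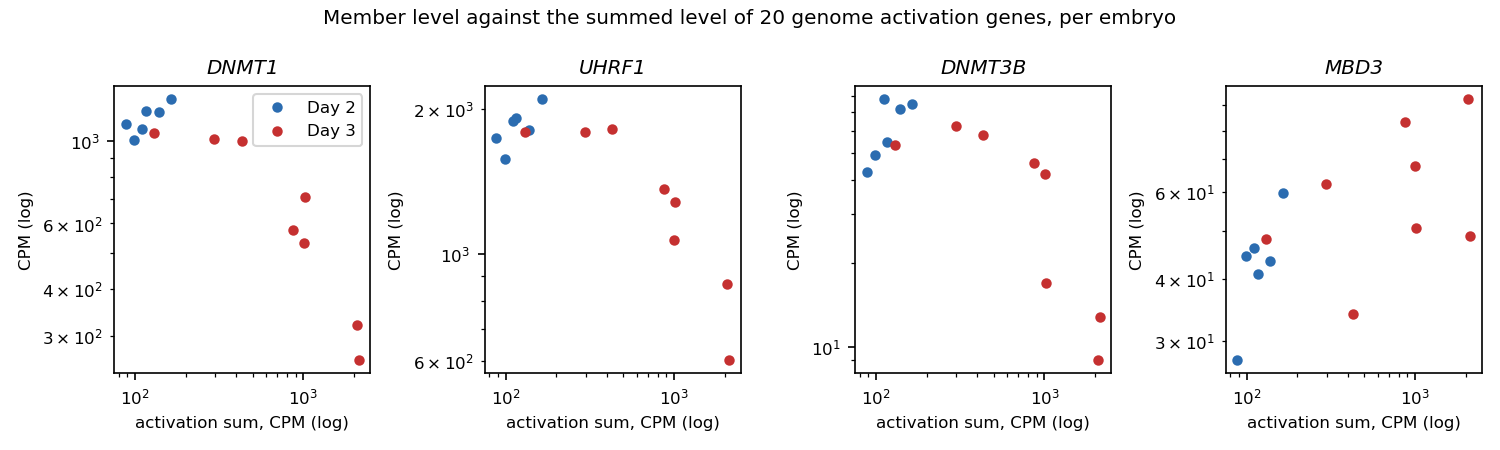
Level of DNMT1, UHRF1, DNMT3B and MBD3 (y axes, CPM, log scale) against the summed level of 20 genome activation genes (x axes, CPM, log scale), with 1 point per embryo; Day 2 is blue and Day 3 red. Over the Day 3 embryos DNMT1, UHRF1 and DNMT3B go down as the sum goes up (r = -0.90, -0.87 and -0.81; without Day3-E4 and Day3-E8 none passes), and MBD3 shows no such order (r = 0.41).

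Other genes that act in maintenance changed in both directions. Of 8 such genes, 6 were listed and 5 tested, of which 1 was higher and 3 were lower on Day 3, with a median log2 fold change of -0.58 beside -0.04 for all genes tested. Of all genes tested, 21.18% were called higher and 11.28% lower. The list is small and was not tested as a set. The chromatin factor CDCA7 (log2 fold change -1.01, edgeR adjusted p = 0.0228), the DNA ligase LIG1 (-0.65, edgeR adjusted p = 0.0264) and the UHRF1 relative UHRF2 (-0.58, edgeR adjusted p = 0.0289) fell. PCNA, the sliding clamp of replication, rose by a log2 fold change of 1.74 (SE 0.44, edgeR adjusted p = 0.00733), from 217 ± 66.7 CPM (SD, n = 6) to 566 ± 356 CPM (SD, n = 8).

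Among the partners of de novo methylation and imprint protection, 0 of 2 tested genes were called in edgeR's fit, beside 21.18% of all genes called higher and 11.28% lower. DPPA3, which protects methylation in the early embryo, had the highest level of the list with 2764 ± 364 CPM on Day 2 and 3286 ± 1037 CPM on Day 3 (SD, n = 6 and 8). Its log2 fold change was 0.48 (edgeR adjusted p = 0.0701).

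Of 12 tested genes of base excision and related steps after TET, 1 was higher and 2 were lower on Day 3, with a median log2 fold change of -0.31. Of all genes tested, 21.18% were called higher and 11.28% lower, and the counts are too small to set apart from these shares. The stress-responsive GADD45A rose by a log2 fold change of 2.21 (SE 0.44, edgeR adjusted p = 0.00147), from 277 ± 50.6 to 975 ± 586 CPM (SD, n = 6 and 8). IDH1, an isocitrate dehydrogenase that makes the TET cofactor 2-oxoglutarate, had -0.91 (edgeR adjusted p = 0.0159), and the glycosylase MBD4 had -0.63 (edgeR adjusted p = 0.0337).

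In the NuRD complex, to which MBD3 belongs, 2 of 7 tested subunits were higher and 0 lower, a count too small to set apart from the 21.18% of all genes called higher. MTA2, counted among the 2, was at 1.32 to 14.96 CPM on Day 2 and 3.33 to 136 CPM on Day 3. It passed the filter through Day 3, where it is high, so its difference is given as a description. The histone-binding RBBP4 had a log2 fold change of 0.94 (edgeR adjusted p = 0.0455). The remodeller CHD4 had -0.01 (edgeR adjusted p = 0.983). In the supply of methyl donor, 2 of 3 tested genes were higher, again beside 21.18% of all genes and on too few genes to set apart. MAT2A, which makes S-adenosylmethionine, rose by 2.41 (SE 0.49, edgeR adjusted p = 0.00176), from 154 ± 24.7 to 623 ± 412 CPM (SD, n = 6 and 8), and the methionine synthase MTR by 1.105 (edgeR adjusted p = 0.0116).

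**Figure D5:**
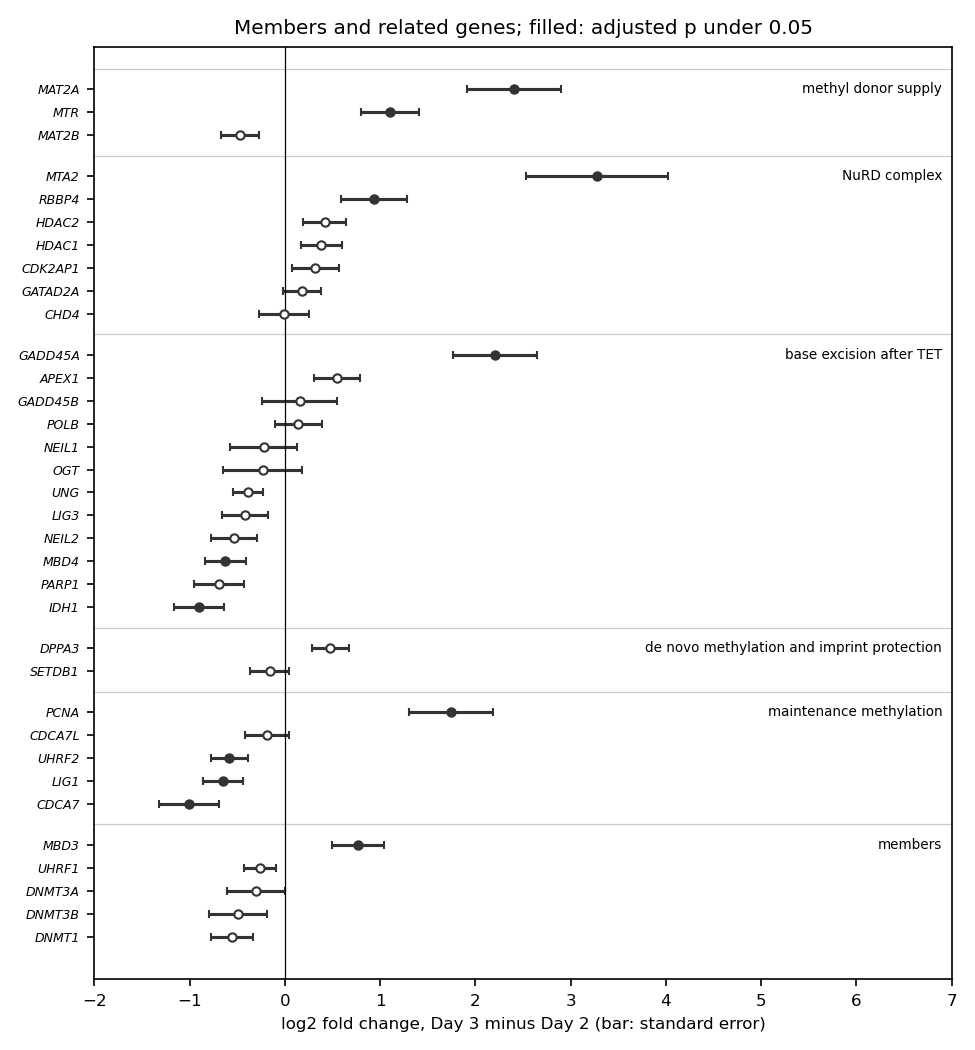
Log2 fold change of Day 3 over Day 2 (x axis; bars are standard errors) for the 5 members tested and the related genes of 5 lists (y axis), with filled points where the edgeR adjusted p was under 0.05. Of the members MBD3 is filled at 0.77, and MTA2, MAT2A, GADD45A and PCNA lie farthest to the right. MTA2 and MTR passed the filter on low counts through Day 3, where they are high, so their filled points are a description.

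Of 7 oocyte markers tested, 0 were higher and 4 were lower on Day 3, beside 11.28% of all genes called lower. They were led by ZAR1 (log2 fold change -1.49, edgeR adjusted p = 0.00359) and the oocyte growth factor GDF9 (-0.97, edgeR adjusted p = 0.0250). ZP3 (-0.18), ZP4 (-0.26) and NLRP5 (-0.94) did not pass, with edgeR adjusted p of 0.508, 0.356 and 0.0576. Of the 20 genome activation genes, 3 passed the filter on low counts. ADAMTS1 and the folate receptor FOLR1 averaged 0.938 and 13.08 CPM on Day 2 and 66.0 and 420 CPM on Day 3. Both passed the filter through Day 3, where they are high, so their difference is given as a description. In these summed profiles, loss of stored transcripts and less synthesis cannot be told apart.

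Of 3747 genes with a mean of 50 CPM or more, those most like DNMT1 over the 14 embryos were GPATCH1, CTNNA1 and POLR1B, with Pearson r of 0.991, 0.991 and 0.989 of log2(CPM + 1). UHRF1 was most like POLR1B (0.979), MRPL14 (0.978) and DNMT1 (0.978). DNMT3A was most like LIMA1 (0.979), FAM53C (0.947) and MED27 (0.944), and DNMT3B was most like FBXL14 (0.961), TMCC3 (0.952) and HMGN1 (0.949). MBD3 was less closely followed, by MRPL15 (0.841), SLC30A7 (0.789) and YWHAQ (0.779). These values describe 14 embryos that share libraries and a day difference, and were not tested.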

How the data were processed

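Reads were mapped by the authors with STAR 2.5.2b (per the submitters' processing notes) to the bovine genome with ERCC sequences, and UMI were counted per gene with the Drop-seq pipeline. The deposited UMI table holds whole-number UMI counts per gene and cell. A second deposited table, of normalised values, was not used. The members and gene lists were chosen with earlier results of these data known.

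Cells with fewer than 2000 gene UMI (9 of 170) were left out and ERCC spike-ins were kept apart. No 2 kept cells had identical counts. UMI were summed per embryo and tested with edgeR 4.0.16 in R 4.3.3 (TMM, filterByExpr, quasi-likelihood test, Benjamini-Hochberg over 5274 genes, threshold 0.05). Standard errors were taken from the fold change and its F statistic. CPM, ratios (0.5 UMI added to each sum) and shares of cells were compared by exact two-sided permutation over all 3003 splits of the embryos, and correlations over all 40320 orders, with SciPy 1.17.1 and Python 3.11.15. Scripts were tested on simulated data. Alternatives included DESeq2 1.42.0, other scalings, no filter, the p1 to p3 suffix of the sample titles, barcode sets, other cell thresholds and leaving out each embryo. The labels do not name donors, so p-values measure the spread between these embryos.

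Named genes were all members, in each list the 2 called genes with the smallest adjusted p in each direction, and for each tested member the 3 genes of 50 CPM or more most correlated with it. UHRF2, DPPA3, CHD4, DDX3Y, ZP3, ZP4, NLRP5 and the cumulus markers were named beyond that rule after their values were seen. The list of methyl-CpG readers is not reported here. Embryo numbers did not pair the days: deviations of same-numbered embryos correlated between -0.13 and 0.02.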

Additional observations from a re-analysis of the deposited data

Results flagged for a closer look

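Of 30 groups of values examined (6 members and 3 ratios as levels, and 6 members as shares of cells, on each day), 4 held an embryo far from the others by Dixon's criterion. For continuous values of normal spread, chance alone meets it in about 1 in 20 groups. That rate does not hold for shares that stop at 100% or for counts of a few UMI. The 4 flagged groups are of these kinds, so their number cannot be set against it. On Day 3, TDG was highest in Day3-E4 at 5.98 CPM, and the next embryo had 2.62 CPM. On Day 2, DNMT1 was seen in 85.7% of Day2-E4 cells and in all cells of the other embryos, and DNMT3A in 50% of Day2-E1 cells, with 85.7% in the next embryo. On Day 3, UHRF1 was seen in 93.3% of Day3-E8 cells and in all cells of the others. The Day2-E4 cell without DNMT1 held 2634 UMI and the Day3-E8 cell without UHRF1 held 2821 UMI.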

How the results depend on the processing

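DNMT1 kept its direction under all 26 alternatives (log2 fold change -1.12 to -0.22, adjusted p 0.0205 to 0.484) and passed the threshold with total UMI without TMM (-0.75), ERCC UMI (-1.12), DESeq2 (-0.54) and p2 and p3 only (-0.74). Leaving out 1 embryo gave -0.63 to -0.47, and it passed without Day3-E1, Day3-E3 or Day3-E5. UHRF1 and DNMT3B passed with ERCC UMI (-0.89 and -1.18) and otherwise did not; leaving out 1 embryo gave -0.32 to -0.21 and -0.61 to -0.36. DNMT3A turned sign with barcode set 1 only (0.16), and leaving out 1 embryo gave -0.53 to -0.18. MBD3 turned sign with ERCC UMI (-0.15) and lost its call with total UMI without TMM (0.48), no filter (0.68), the p group as a covariate (0.88), barcode set 1 only (0.35), cells with 10000 or more UMI (0.72) and without Day3-E4 and Day3-E8 (0.57, added after seeing the data). Leaving out 1 embryo gave 0.62 to 0.88, and the call was lost without each of Day2-E2 to Day2-E6, Day3-E4, Day3-E6, Day3-E7 and Day3-E8. The number of members called was 3 with ERCC UMI, 2 with DESeq2 and with p2 and p3 only, and 0 with no filter, the p group as a covariate, barcode set 1 only, cells with 10000 or more UMI and without Day3-E4 and Day3-E8; leaving out 1 embryo gave 0 to 2. The cause of these changes was not tested.

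Embryo numbers are only names here. With the replicate block, MBD3 had 0.65 (edgeR adjusted p = 0.217), 0 members were called, and 702 genes were called in place of 1712. DNMT1 per UHRF1 differed by -0.32 (exact sign-flip test over 6 pairs, adjusted p = 0.0938). The smallest unadjusted p of that test is 0.03125. With the other ratios as they were, DNMT1 per UHRF1 could therefore not pass after adjustment, whatever its values. No embryo correlated best with its own number. DNMT1 per UHRF1 lost its call with cells weighted equally (-0.35), and leaving out 1 embryo gave -0.39 to -0.29. With barcode set 1 only the difference was -0.13, and the 2 Day 3 embryos of that set are too few for the permutation test to pass after adjustment. The maintenance to de novo ratio turned sign with DNMT1 alone (-0.11; leaving out 1 embryo 0.02 to 0.19), and DNMT3A per DNMT3B with p2 and p3 only (-0.30; leaving out 1 embryo -0.056, without Day3-E4, to 0.33). Without the 2 embryos farthest from the median of the activation sum on the log2 scale, rho no longer passed for DNMT1 (-0.83) and DNMT3A (-0.77). Without Day3-E4 and Day3-E8 (added after seeing the data), r no longer passed for DNMT1 (-0.86), UHRF1 (-0.83) and DNMT3B (-0.60), nor rho for DNMT1 (-0.83), UHRF1 (-0.71), DNMT3A (-0.71) and DNMT3B (-0.83). TET ratios were not run. Thinned to 10000 and 5000 UMI, the difference in shares turned sign for DNMT1 (-3.34 and -10.8 points) and MBD3 (6.76 and 5.01 points) and lost its call for DNMT3A (-15.0 and -9.81), DNMT3B (-14.6 and -8.88) and TDG (-1.31 and -0.587). The number of genes called over all genes was 351 with barcode set 1 only, 1134 without Day3-E4 and Day3-E8 and 2363 with ERCC UMI, against 1712. The share of calls that were higher was 65.2%, against 47.6% without TMM, 19.3% with ERCC UMI, 93.2% with barcode set 1 only, 55.3% with the p group as a covariate and 55.1% with p2 and p3 only. ERCC scaling moved the median of all genes to -0.77 and follows the barcode sets.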
